A study of Mus musculus with 6 samples.

Results

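The 10 genes described here are Ddit4, Trib3, Atf4, Atf5, Asns, Psat1, Phgdh, Shmt2, Mthfd2 and Sesn2, which belong to the amino acid arm of the ATF4 stress response or to its link with growth control. They were chosen by symbol, as 10 of the 31253 features in the count tables, and each symbol matched 1 feature. No measured value entered that choice, although results of these data were known when it was made. The question was how high each gene stands in each kind of marrow cell and how it differs between mice with Txnip (wild type, WT) and mice that lack it (knock-out, Txnip-KO). Txnip encodes a thioredoxin-binding arrestin-like protein that limits glucose uptake.

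Bone marrow cells of 3 WT and 3 Txnip-KO mouse samples had been enriched, sorted by flow cytometry and profiled one cell at a time with the Chromium Single Cell 3' kit, which tags each captured molecule with a unique molecular identifier (UMI). The labels give no age, strain, sex or treatment for either group. They do not name the sorted population or the deleted stretch of Txnip, or say whether the knock-out was confined to some cells. Nor do they tie each sample to an animal of its own, so every p-value here reflects the scatter of 6 libraries, part of which may be technical.

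ATF4 is a transcription factor whose messenger RNA is translated better when the initiation factor eIF2 is phosphorylated, as happens when amino acids run short, proteins misfold or haem is lacking. Together with partners such as CEBP proteins it then raises asparagine synthetase (Asns), enzymes of serine and one-carbon synthesis, the pseudokinase Trib3 and the related factor Atf5. Ddit4 (REDD1) and Sesn2 encode inhibitors of mTORC1, the kinase complex that drives growth when nutrients are present. Ddit4 is also a target of other inputs, among them glucocorticoids, hypoxia and p53, and its messenger RNA is short-lived. Because ATF4 is controlled largely at translation, the level of its own messenger RNA is not a measure of its activity.

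The kept data hold 41513 cells, with 6190, 7020 and 6798 from WT 1 to 3, against 6023, 7827 and 7655 from Txnip-KO 1 to 3. Sample medians ran from 8918 to 9176.5 UMIs per kept WT cell and from 6932 to 8187 per Txnip-KO cell, so the Txnip-KO cells were the shallower ones. Txnip itself gave 19607, 14903 and 18717 UMIs in the WT samples, against 585, 666 and 28 in the Txnip-KO samples. Cells were assigned to a type when they held enough of a list of marker genes, and are called gated cells. The 12 types with at least 20 cells in every sample hold 30918 cells (74.5%), and 6128 of these sat exactly at the number of markers required. Of the remaining cells, 6480 passed no gate, 3948 passed several without a clear lead, and 167 fell to the small T, stromal and plasma cell gates. Between any pair of libraries, 9 to 23 cell barcodes were shared.

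The ATF4 response acts through a composite promoter element, written TGATGNAA in its usual core, so the promoters of the 10 genes were searched for it on both strands in RefSeq sequence of GRCm38 (250 bases before to 50 after each annotated start). All 10 genes matched, with 12 promoter entries. For 2 genes the RefSeq starts lie well inside the GENCODE gene. These are Psat1 (chr19, 15925059 and 15924622 against a GENCODE start of 15947337) and Mthfd2 (chr6, 83317604 against 83325908). The sequence at those GENCODE starts was not searched. The core was present in 3.97% of 32851 mouse promoters and in those of Trib3 and Asns among the 10 genes. In Asns it began 23 bases before the RefSeq start, at chr6:7693225-7693232, and in Trib3 it lay 15 bases after that start on the opposite strand, at chr2:152344039-152344046. Both sites are shown with their flanks because these are the genes whose messenger RNA rose beside that of Ddit4, with the match in capitals, read along the gene's own minus strand (chr2:152344028-152344057 and chr6:7693214-7693243).
Trib3: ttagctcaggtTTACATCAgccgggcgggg
Asns: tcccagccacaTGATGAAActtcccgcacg
The 186 bases before the GENCODE start of Ddit4 (chr10:59951835-59952020, minus strand) are shown because this gene had the widest response. They hold no TGATGNAA, and the capitals mark CCAAT motifs in the opposite orientation, a pentamer that 37.4% of all promoters and 7 of the 10 genes hold.
Ddit4: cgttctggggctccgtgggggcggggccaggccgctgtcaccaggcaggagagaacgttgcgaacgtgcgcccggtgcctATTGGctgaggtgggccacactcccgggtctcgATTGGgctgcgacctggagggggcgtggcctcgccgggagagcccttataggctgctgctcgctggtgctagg
None of the 10 genes had the cyclic AMP element TGACGTCA (1.79% of all promoters), the E-box CACGTG (7.15%) or the palindromic glucocorticoid response element (0.475%) in this window. The promoters of Trib3 and Asns hold no CCAAT in this window, so the matches of these motifs do not overlap. A match or its absence describes only these letters in this window.

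Over all kept cells, 3 of the 10 genes were higher and 2 were lower in Txnip-KO, by edgeR's quasi-likelihood test with Benjamini-Hochberg adjustment over 14648 genes at a threshold of 0.05. Among all genes tested 21.8% were higher and 19.3% lower, so 5 calls in 10 are close to the 41.1% of all genes that were called. Ddit4, Trib3 and Asns rose, Phgdh and Mthfd2 fell, and Atf4, Atf5, Psat1, Shmt2 and Sesn2 did not pass the test. The median log2 fold change (Txnip-KO over WT) was 0.06 over the 10 genes and 0.04 over all genes tested. The rises were in an inhibitor of mTORC1, a pseudokinase that damps ATF4 and an amino acid synthetase, and the falls in 2 enzymes of serine and one-carbon synthesis.

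**Figure D1:**
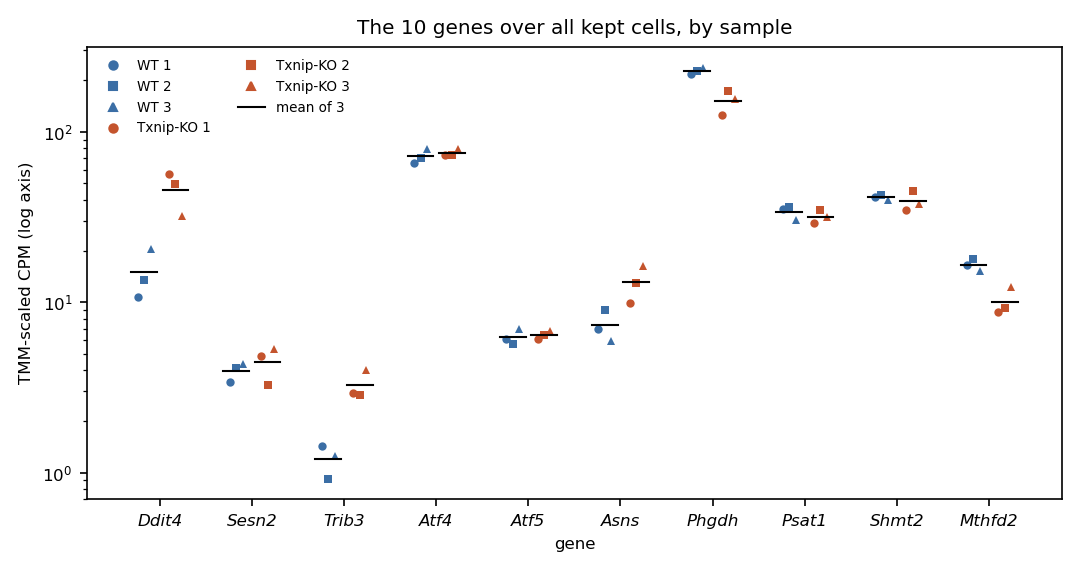
TMM-scaled CPM (UMIs per 1000000, log axis) of each of the 10 genes in each of the 6 samples, summed over all kept cells; symbols mark the replicate number and bars the mean of 3 samples. The Txnip-KO points lie above all WT points for Ddit4, Trib3 and Asns and below them for Phgdh and Mthfd2.

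Ddit4 was the gene with the largest and widest difference. Its level over all kept cells was 10.8, 13.4 and 20.6 CPM from WT 1 to 3, against 56.2, 49.3 and 31.8 CPM from Txnip-KO 1 to 3. CPM are UMIs of a gene per 1000000 UMIs of a sample, scaled with the trimmed mean of M-values (TMM). The groups did not overlap, as in 29.4% of all genes in the upward and 26.1% in the downward direction. WT 3 was the highest WT sample and Txnip-KO 3 the lowest Txnip-KO sample. The log2 fold change was 1.61 (SE 0.27, edgeR quasi-likelihood adjusted p = 0.00322). With every sample drawn down to equal cell numbers per gated type it was 1.82, so the rise was present with the mix of types held equal. Among cells without a UMI of 18 division markers, where the mix was not held equal, it was 1.33.

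The share of cells with at least 1 Ddit4 UMI moved the same way. After thinning every cell to 1000 UMIs it was 2.24% ± 0.52 in WT and 5.74% ± 1.89 in Txnip-KO (SD, n = 3 each), and without thinning it was 12.3% ± 3.24 and 27.5% ± 7.36. A two-sided exact permutation test gave p = 0.1 for both, the smallest value that 3 samples against 3 can give.

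In WT marrow Ddit4 was highest in innate lymphoid gated cells, at 66.9 CPM ± 21.1 (SD, n = 3), where the 3 samples all lay above those of the next type. Basophil or mast gated cells followed at 35.2 ± 5.25, then monocyte or dendritic gated cells at 28.7 ± 15.6, NK gated cells at 25.8 ± 6.42 and plasmacytoid dendritic gated cells at 20.3 ± 2.299. Below these stood B lineage (16.7 ± 4.69), stem (14.0 ± 4.16), lymphoid progenitor (13.5 ± 6.25), erythroid (9.18 ± 2.78), neutrophil lineage (6.64 ± 5.79), granulocyte-monocyte progenitor (5.43 ± 1.501) and megakaryocyte gated cells (4.49 ± 1.75). From the second place down, each type overlapped with its neighbour over the 3 samples, so only the first place is separate from the next. The innate lymphoid, NK, basophil or mast and dendritic gates thus had higher WT means than the granulocyte-monocyte progenitor and megakaryocyte gates. TMM scaling was done within each type, and levels set side by side between types carry that limit.

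**Figure D2:**
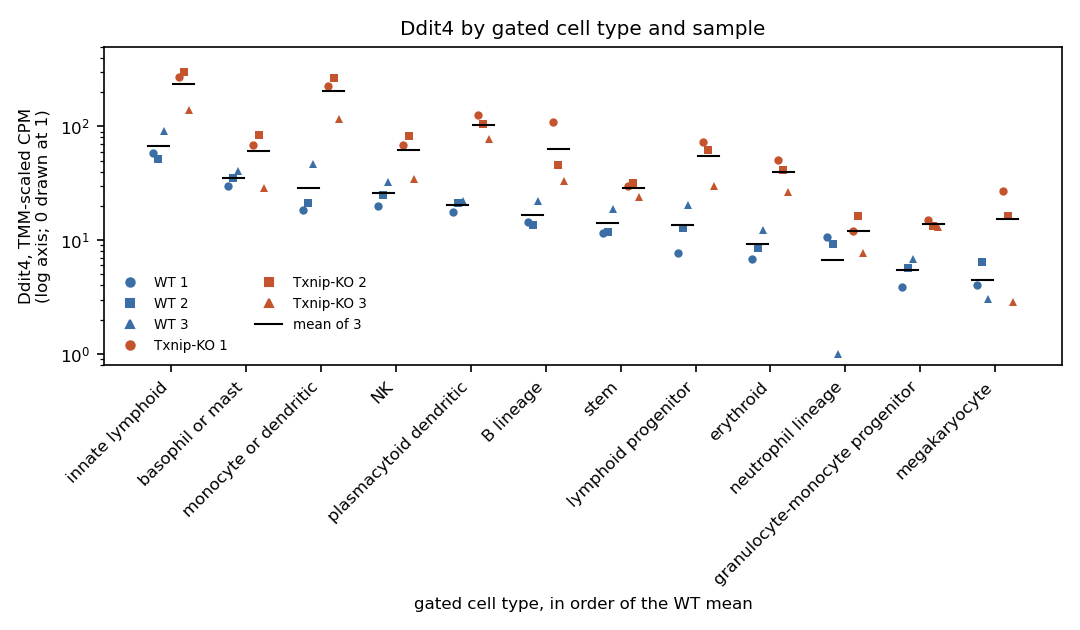
TMM-scaled CPM of Ddit4 (log axis) in each gated cell type, ordered by the WT mean, with 3 WT and 3 Txnip-KO samples and their means as bars; a value of 0 is drawn at 1. The Txnip-KO points lie above all WT points in 9 of the 12 types, and the triangle of Txnip-KO 3 is the lowest of the Txnip-KO points in 12 of 12.

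Ddit4 was higher in Txnip-KO in 11 of the 11 types in which it passed the filter on low counts. In these types the share of all tested genes called higher ran from 1.93% in innate lymphoid to 22.2% in lymphoid progenitor gated cells. The median of the 11 log2 fold changes was 1.798. In the neutrophil lineage gate the gene did not pass the filter, with 2 UMIs in all WT cells together.

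Monocyte or dendritic gated cells had the largest difference. Ddit4 stood at 18.4, 21.1 and 46.7 CPM in the WT samples and at 225, 269 and 117 CPM in the Txnip-KO samples. The lowest Txnip-KO sample was above the highest WT sample, and the log2 fold change was 2.81 (SE 0.33, edgeR quasi-likelihood adjusted p = 0.000257). In this type 6.9% of genes were called higher, and 16% had every Txnip-KO sample above every WT sample. In plasmacytoid dendritic gated cells, which secrete interferon on viral challenge, the values were 17.7, 21.2 and 22.0 against 127, 104 and 77.1 CPM, a log2 fold change of 2.26 (SE 0.20), where 10.1% of genes were higher and 17.2% had no overlap upwards. The plasmacytoid gate held 5.24% of the kept WT cells and 1.19% of the kept Txnip-KO cells, and the part of that fall in the result was not tested.

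Innate lymphoid gated cells, the type with the highest WT level, also had the highest Txnip-KO level. The samples gave 58.6, 51.3 and 90.9 CPM in WT against 271, 300 and 140 CPM in Txnip-KO, a log2 fold change of 1.79 (SE 0.24), beside 1.93% of genes called higher. In NK gated cells the WT values were 19.9, 24.8 and 32.6 and the Txnip-KO values 68.9, 81.6 and 34.3 CPM, with a log2 fold change of 1.24 (SE 0.24) and 13.9% of genes called higher. The groups there were separated by the narrow gap between WT 3 and Txnip-KO 3. B lineage gated cells gave 14.6, 13.4 and 22.1 against 110, 45.7 and 33.1 CPM (2.01, SE 0.43), in a type where 6.32% of genes were higher. Without Txnip-KO 1, the high sample, the B lineage value was 1.12 and no longer passed.

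Among progenitors, lymphoid progenitor gated cells (Flt3, Dntt) rose from 7.73, 12.7 and 20.2 to 72.8, 61.6 and 29.9 CPM, a log2 fold change of 1.98 (SE 0.32). Erythroid gated cells rose from 6.75, 8.59 and 12.2 to 50.7, 41.0 and 26.7 CPM (2.06, SE 0.24). Stem gated cells (Hlf, Mecom, Procr) rose from 11.5, 11.7 and 18.8 to 29.8, 31.9 and 23.8 CPM (1.06, SE 0.17). Granulocyte-monocyte progenitor gated cells rose from 3.84, 5.63 and 6.82 to 15.1, 13.3 and 13.02 CPM (1.36, SE 0.20). In these 4 types, as in 9 of the 12, no Txnip-KO sample fell among the WT samples. Every Txnip-KO sample lay above every WT sample for 21.7% of genes in stem, 27.4% in lymphoid progenitor, 14.7% in B lineage, 24.9% in granulocyte-monocyte progenitor, 21.9% in NK, 11.8% in innate lymphoid and 21.9% in erythroid gated cells. The genes called higher made up 14% in stem, 19.4% in granulocyte-monocyte progenitor and 13.7% in erythroid gated cells. Among stem gated cells without a division UMI the log2 fold change was 0.86 and the adjusted p of the same edgeR test 0.147. Of the 12 stem markers 10 differed between the groups over all kept cells, as did 8 of the 9 plasmacytoid markers. With 2 and 1 markers left, these 2 gates could not be set without differing markers. The part of this in the results of both gates was not tested.

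In basophil or mast gated cells, with the smallest of the 11 differences, and in megakaryocyte gated cells the groups overlapped. Basophil or mast gated cells gave 29.8, 35.5 and 40.3 CPM in WT against 69.2, 83.7 and 28.8 CPM in Txnip-KO (0.81, SE 0.25, edgeR quasi-likelihood adjusted p = 0.0419). Megakaryocyte gated cells gave 4.01, 6.43 and 3.03 against 27.0, 16.4 and 2.84 CPM (1.798, SE 0.50, adjusted p = 0.0358 by the same test). In both, Txnip-KO 3 lay below the WT mean. In these types 7.25% and 4.76% of genes were higher. Leaving out WT 1, WT 2, WT 3, Txnip-KO 1 or Txnip-KO 2 ended each of these calls, with log2 fold changes from 0.61 to 0.89 in the first and from 1.36 to 2.15 in the second. The basophil or mast call also ended with DESeq2 (0.78), a stricter cell filter (0.53), a gate without differing markers (0.74) and among cells without a division UMI (0.63).

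The size of the Ddit4 rise differed between types by the interaction of type and genotype over all 12 types (edgeR quasi-likelihood adjusted p = 5.45e-09, with each sample as a block). Of the 12597 genes in that test, 34.4% were called. Against NK gated cells, the type with the most cells, the rise was larger by 1.59 on the log2 scale in monocyte or dendritic gated cells (SE 0.23, adjusted p = 4.07e-07 by edgeR). It was also larger in plasmacytoid dendritic (1.04), erythroid (0.87) and lymphoid progenitor gated cells (0.81). In those 4 contrasts 4.79%, 1.41%, 5.81% and 4.17% of all genes were called. Against stem gated cells the same 4 types had the larger rise, by 1.81, 1.26, 1.09 and 1.03, where 6.35%, 1.56%, 2.48% and 0.929% of genes were called.

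In a list of glucocorticoid targets, 9 of 12 genes were higher in Txnip-KO and none lower over all kept cells (median log2 fold change 0.70). Like the other lists, it was chosen with earlier results of these data known. The summed level of its genes was 269.6, 283 and 328 CPM from WT 1 to 3, against 566, 515 and 473 CPM from Txnip-KO 1 to 3. Its genes with the smallest p were Mt2 (a metallothionein, 2.28), Klf9 (a Krüppel-like factor, 1.49), Tsc22d3 (the leucine zipper protein GILZ, 1.53) and Per1 (a clock gene, 1.54). Cebpd and Zbtb16 of this list also stand in the stress or innate lymphoid lists used here. Beside the counts of these lists, 21.8% of all genes tested were higher and 19.3% lower. Of the other inputs to Ddit4, hypoxia targets were higher in 2 and lower in 5 of 13, with Hif1a (-0.59) lower and Ndrg1 (0.71) higher. p53 targets were higher in 2 and lower in 3 of 12, with Cdkn1a (-0.92) lower and Trp53inp1 (0.65) higher. Immediate early and handling genes were higher in 2 of 12 and lower in none, among them Jun (1.19) and Ier3 (0.52). Whether any of these inputs takes part in the Ddit4 rise was not tested.

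The 5 genes most like Ddit4 over the 12 types in WT, among 8886 with at least 20 CPM in 1 type, were Tmem167b (Pearson r of log2 CPM 0.95), Rab5a (0.92), Lpxn (0.92), Prkx (0.91) and Rab19 (0.90). In the Txnip-KO means their r was 0.54, 0.64, 0.85, 0.77 and 0.46. These are descriptions over 12 types that share libraries and depth. Among the 10 genes themselves, Ddit4 was most like Atf5 (0.58) and least like Asns (-0.71), so the mTORC1 inhibitor and asparagine synthetase stood high in different cells.

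Sesn2, the leucine-binding sestrin that also restrains mTORC1, did not follow Ddit4. Over all kept cells it stood at 3.39, 4.10 and 4.33 CPM in WT against 4.82, 3.27 and 5.34 in Txnip-KO, overlapping values with a log2 fold change of 0.18 (SE 0.20, edgeR quasi-likelihood adjusted p = 0.482). It was higher in 1 of the 8 types tested, lymphoid progenitor gated cells (2.26, 2.17 and 3.05 against 4.72, 2.90 and 5.58 CPM, log2 fold change 0.79, SE 0.26). That call ended without WT 1 (0.72), WT 2 (0.69), Txnip-KO 1 (0.75) or Txnip-KO 3 (0.56), and with a gate without differing markers (0.76). Of 32 further genes of mTORC1 and amino acid sensing, 8 were higher and 6 lower over all kept cells, shares near those of all genes (median 0.07). Deptor, an inhibitor bound to mTOR, rose (1.27), as did the arginine sensor family member Castor2 (0.85), while Rraga (-0.45) and Lamtor4 (-0.45), parts of the lysosomal activation platform, fell.

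Trib3, a pseudokinase that ATF4 induces and that damps ATF4 and AKT signalling, was low in all samples and higher in Txnip-KO. Over all kept cells it stood at 1.43, 0.92 and 1.25 CPM in WT against 2.93, 2.85 and 3.99 CPM in Txnip-KO. The groups did not overlap, Txnip-KO 3 was the highest, and the log2 fold change was 1.44 (SE 0.22, edgeR quasi-likelihood adjusted p = 0.00264). The counts behind these levels were 90, 64 and 82 UMIs in WT against 171, 200 and 248 UMIs in Txnip-KO. After thinning to 1000 UMIs per cell, a Trib3 UMI was present in 0.156% ± 0.038 of cells in WT and 0.300% ± 0.080 in Txnip-KO (SD, n = 3 each), and the summed thinned counts gave 0.92, which no longer passed.

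By WT mean, Trib3 stood above 1 CPM in 4 of the 12 gates. Its WT mean was highest in stem gated cells, at 5.77 CPM ± 2.40 (SD, n = 3), followed by B lineage (3.28 ± 1.94), basophil or mast (2.10 ± 1.17) and lymphoid progenitor gated cells (1.93 ± 0.85), each overlapping with the next of these. In that order these WT means rest on 80, 5, 12 and 83 UMIs. Stem and lymphoid progenitor gated cells were the 2 types in which it could be tested, and it was higher in both, where 14% and 22.2% of all genes were. Lymphoid progenitor gated cells gave 2.89, 1.29 and 1.61 against 5.51, 3.68 and 6.62 CPM, with no overlap (1.46, SE 0.30). Stem gated cells gave 4.30, 4.47 and 8.53 against 8.59, 8.31 and 13.1 CPM, where WT 3 reached the lower Txnip-KO samples (0.81, SE 0.27). The stem call ended without WT 1 (0.61), WT 2 (0.67) or Txnip-KO 3 (0.59), and among stem gated cells without a division UMI (0.34). In granulocyte-monocyte progenitor gated cells the untested values were 0.32, 0.26 and 0.20 against 2.22, 0.74 and 4.82 CPM. No Trib3 UMI was seen in plasmacytoid dendritic gated cells, which allows up to 0.396 CPM in WT against 2.08 CPM in Txnip-KO (3 counts per group; counting error only).

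Atf4 itself did not pass the test over all kept cells. It stood at 65.5, 70.3 and 79.4 CPM in WT against 73.4, 73.3 and 79.5 CPM in Txnip-KO, with overlapping groups and a log2 fold change of 0.07 (SE 0.08, edgeR quasi-likelihood adjusted p = 0.520). It was detected well enough to test in all 12 types. The WT mean ran from 59.2 CPM ± 8.99 in lymphoid progenitor to 145.8 ± 14.9 in neutrophil lineage gated cells (SD, n = 3). It was higher in granulocyte-monocyte progenitor gated cells, at 79.1, 84.0 and 96.5 against 106, 98.9 and 106 CPM (0.27, SE 0.09), a type in which 19.4% of genes were higher. That call ended without WT 1 (0.20), WT 2 (0.24) or Txnip-KO 1 (0.25), with DESeq2 (0.26), no filter on low counts (0.23), doublets kept (0.22), a stricter cell filter (0.18) and thinned cells (0.47). It was 0.04 when the gate left out markers that differed between the groups. In the other 11 types the log2 fold change lay between -0.20 and 0.19. Atf5, a related factor under ATF4, gave 6.04, 5.70 and 6.96 against 6.09, 6.46 and 6.82 CPM over all kept cells (0.05, SE 0.11) and was called in 0 of 8 types. Atf5 overlaps Nup62 and Il4i1 on the opposite strand, and no source used here states how strand was counted, so its counts may include reads of these.

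**Figure D3:**
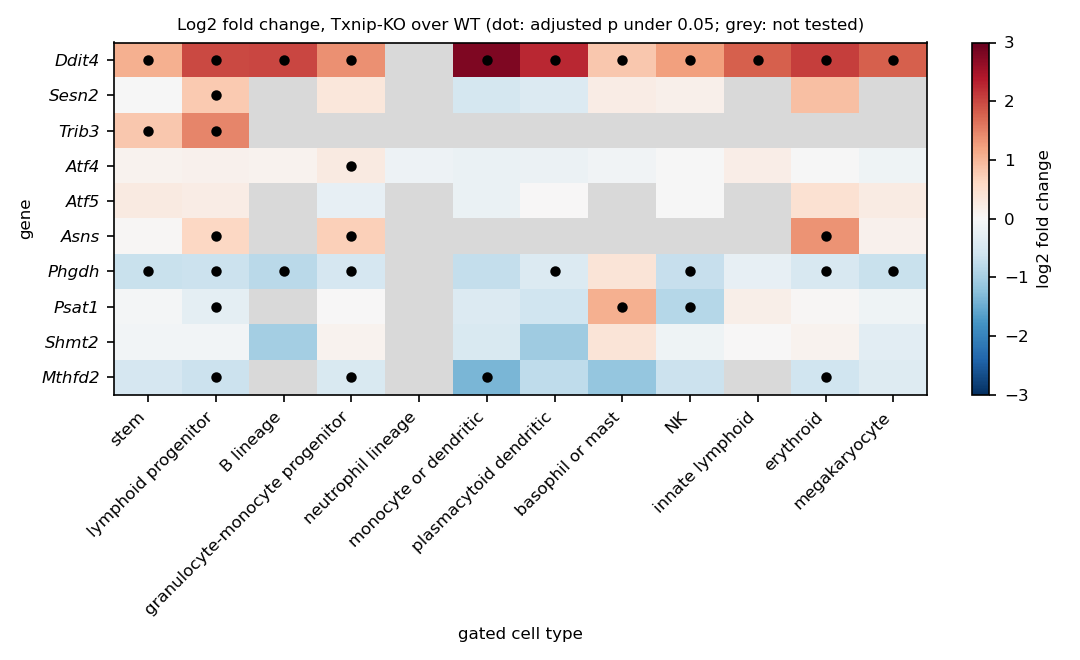
Log2 fold change (Txnip-KO over WT, colour) of the 10 genes in 12 gated cell types, from 3 WT and 3 Txnip-KO samples per type; dots mark an adjusted p under 0.05 and grey fields were not tested. Ddit4 is dotted in 11 types and Phgdh in 8, in opposite directions, while Atf4 carries 1 dot and Shmt2 and Atf5 carry none.

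Counted over the 10 genes and 12 types, 33 of 87 tested differences passed (37.9%), 19 higher and 14 lower. Of all gene and type pairs tested 24.3% passed, and 24.7% when each type is weighted by the number of the 10 genes tested in it. Ddit4 gave 11 and Phgdh 8 of the 33. Lymphoid progenitor gated cells had the most, with Ddit4, Trib3, Asns and Sesn2 higher and Phgdh, Psat1 and Mthfd2 lower. In that type 46% of all 11958 genes tested were called. The interaction of type and genotype passed for 6 of the 10 genes (Ddit4, Asns, Psat1, Atf4, Phgdh and Shmt2), beside 34.4% of all genes. With each sample left out in turn, it kept passing for Ddit4 and Asns. It was lost for Atf4 without WT 1, WT 2, Txnip-KO 1 or Txnip-KO 2, for Phgdh without WT 1, WT 3 or Txnip-KO 1, for Psat1 without Txnip-KO 3, and for Shmt2 as given with that gene.

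Asns, which makes asparagine from aspartate and glutamine and is among the most ATF4-dependent genes, was higher over all kept cells. It stood at 6.95, 9.02 and 5.96 CPM in WT against 9.95, 12.9 and 16.3 CPM in Txnip-KO, with no overlap (0.84, SE 0.20, edgeR quasi-likelihood adjusted p = 0.0131). Without WT 3 the log2 fold change was 0.70 and with thinned cells 0.75, and the call was lost in both. The Txnip-KO samples stood in the order 3, 2, 1, the reverse of their order for Ddit4.

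By WT mean, Asns stood highest in megakaryocytic, erythroid, neutrophil and progenitor gates. The neutrophil lineage value rests on 3 UMIs in all WT cells together, so its place is uncertain. Its WT mean was 27.3 CPM ± 7.44 in megakaryocyte, 17.6 ± 4.04 in erythroid, 10.7 ± 9.59 in neutrophil lineage, 9.56 ± 3.34 in stem and 7.91 ± 2.11 in granulocyte-monocyte progenitor gated cells (SD, n = 3), each overlapping with the next of these. It was 4.42 ± 0.88 in lymphoid progenitor and 1.96 ± 0.84 in innate lymphoid gated cells, and under 1 CPM in the other 5 types. B lineage and plasmacytoid dendritic gated cells gave no Asns UMI, which allows up to 1.91 and 0.396 CPM in WT (3 counts per group).

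Erythroid gated cells (Klf1, Car1, Epor) had the largest Asns difference of the 5 types tested, from 15.6, 22.2 and 14.9 CPM in WT to 31.0, 41.4 and 59.7 CPM in Txnip-KO. Every Txnip-KO sample was above every WT sample, with a log2 fold change of 1.34 (SE 0.21, edgeR quasi-likelihood adjusted p = 0.000799). In this type 13.7% of genes were higher. With thinned cells the erythroid value was 0.70 (adjusted p = 0.242 by the same test), and the call was lost. Megakaryocyte gated cells, with the highest WT level, gave 33.9, 28.7 and 19.2 against 24.6, 28.5 and 38.8 CPM (0.13, SE 0.22, adjusted p = 0.753 by the same test), and stem gated cells 7.73, 13.4 and 7.53 against 9.51, 9.62 and 10.1 CPM (0.02, SE 0.21). The erythroid rise was larger than that of stem gated cells by 1.25 on the log2 scale (SE 0.24, edgeR interaction adjusted p = 0.00118, 2.48% of genes called). Granulocyte-monocyte progenitor (0.72, SE 0.22) and lymphoid progenitor gated cells (0.62, SE 0.22) were also higher. The first call ended without WT 1 (0.59), WT 3 (0.63) or Txnip-KO 3 (0.51) and fell to 0.22 with the gate that left out differing markers. The second ended without WT 1 (0.49), WT 3 (0.60), Txnip-KO 2 (0.68) or Txnip-KO 3 (0.37), and with a stricter gate (0.53).

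**Figure D4:**
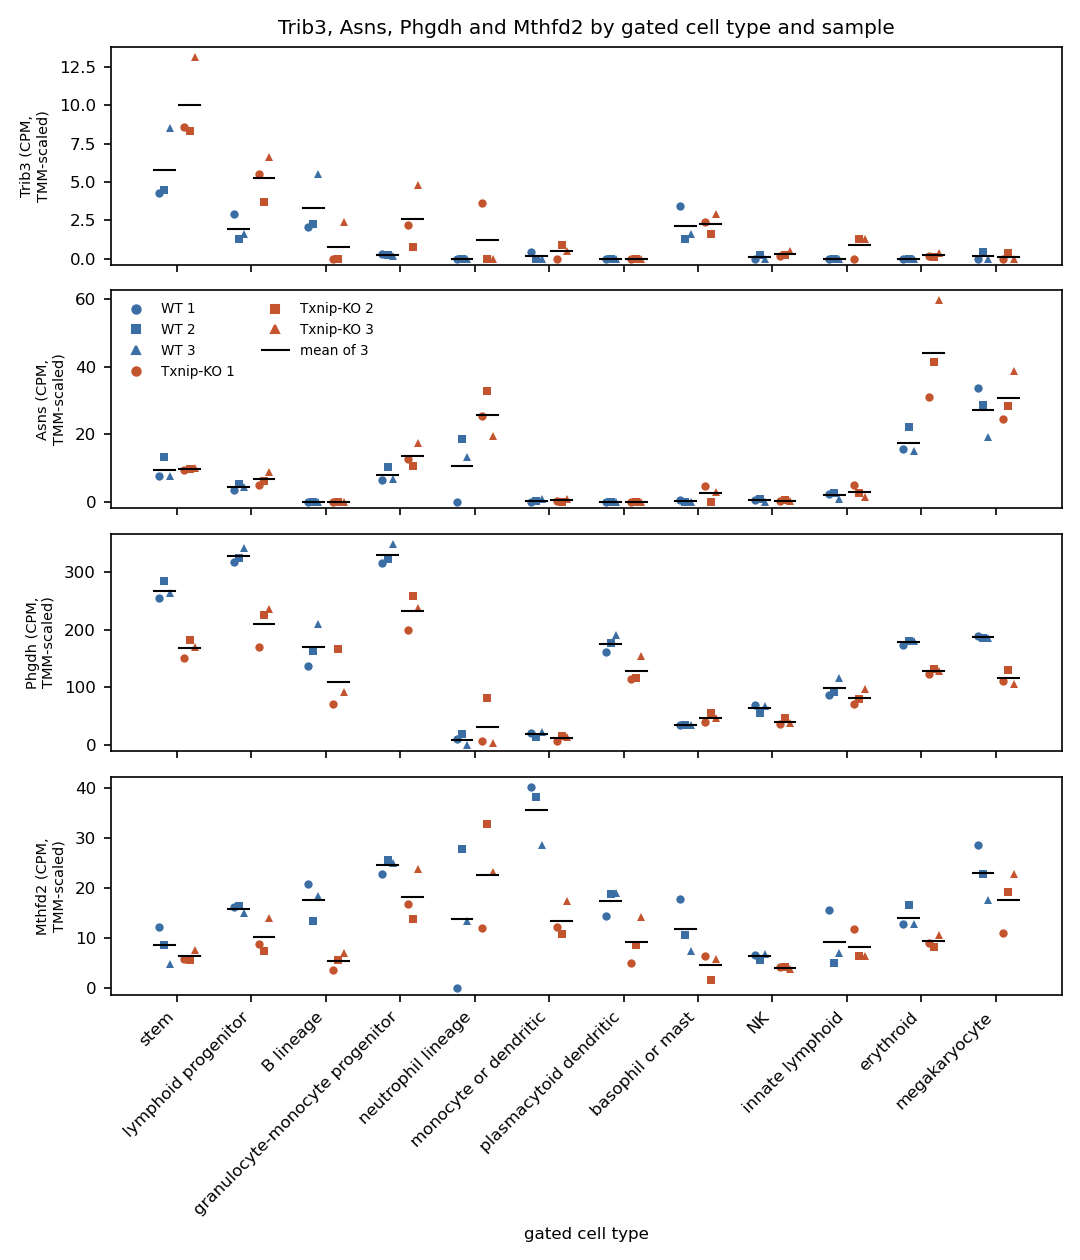
TMM-scaled CPM (linear axes) of Trib3, Asns, Phgdh and Mthfd2 in 12 gated cell types, 3 WT and 3 Txnip-KO samples with means as bars. In erythroid gated cells the Asns points of Txnip-KO lie at 31.0 to 59.7 CPM, above the WT points, while the Phgdh points of stem, lymphoid progenitor and erythroid gated cells lie below the WT points.

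Phgdh, which takes the first step from a glycolytic intermediate towards serine, was lower in Txnip-KO. Over all kept cells it stood at 219, 228 and 238 CPM in WT against 125, 173 and 156 CPM in Txnip-KO. The groups did not overlap and the log2 fold change was -0.59 (SE 0.11, edgeR quasi-likelihood adjusted p = 0.00548). Among cells without a division UMI the value was 0.0080 (adjusted p = 0.976 by the same test), with thinned cells it was -0.35 (adjusted p = 0.0682), and with equal numbers of cells of each type it was -0.66. In the first of these sets the mix of types was not held equal. Stem gated cells (267 CPM of Phgdh in WT) numbered 29 to 44 per WT and 143 to 181 per Txnip-KO sample there. Basophil or mast gated cells (34.8 CPM in WT) numbered 336 to 423 and 99 to 282. The part of that shift in the value was not tested. Division markers fell in the same samples, with 18 of 18 lower and a summed level of 1379 to 1565 CPM in WT against 835 to 983 CPM in Txnip-KO.

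By type Phgdh was lower in 8 of the 11 types tested, beside 15.9% of all genes lower in stem, 23.8% in lymphoid progenitor, 7.25% in B lineage, 20.7% in granulocyte-monocyte progenitor, 10.3% in plasmacytoid dendritic, 14.7% in NK, 14.7% in erythroid and 5.28% in megakaryocyte gated cells. Its WT mean was highest in granulocyte-monocyte progenitor (328 CPM ± 18.1) and lymphoid progenitor gated cells (327 ± 12.4, SD, n = 3) and lowest in neutrophil lineage gated cells (9.74 ± 9.32). Lymphoid progenitor gated cells fell from 317, 323 and 341 to 169, 224 and 236 CPM, a log2 fold change of -0.64 (SE 0.11). Stem gated cells fell from 255, 283 and 264 to 151, 182 and 170 CPM (-0.68, SE 0.09), and granulocyte-monocyte progenitor gated cells from 314, 322 and 349 to 199, 258 and 237 CPM (-0.50, SE 0.09). In none of these 3 types did the groups overlap. Over all kept cells 26.1% of genes had no overlap downwards, and the share by type is not given here.

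Megakaryocyte gated cells fell from 189, 185 and 186 to 111, 130 and 106 CPM (-0.68, SE 0.12), erythroid gated cells from 173, 180 and 180 to 124, 132 and 129 CPM (-0.47, SE 0.07) and NK gated cells from 69.8, 55.7 and 67.9 to 36.1, 46.2 and 37.9 CPM (-0.70, SE 0.12). B lineage (-0.81, SE 0.25) and plasmacytoid dendritic gated cells (-0.41, SE 0.14) were lower as well. The B lineage call ended without WT 2 (-0.84), WT 3 (-0.63), Txnip-KO 1 (-0.54) or Txnip-KO 3 (-0.77), and the plasmacytoid call without WT 2 (-0.42), WT 3 (-0.35), Txnip-KO 1 (-0.35) or Txnip-KO 2 (-0.36). Among cells without a division UMI the fall stayed past the threshold in stem (-0.65) and NK gated cells (-0.52) and did not in lymphoid progenitor (-0.36), B lineage (-0.22) and plasmacytoid dendritic gated cells (-0.15). The share of stem gated cells with a division UMI was 91.7% in WT and 79.3% in Txnip-KO, and that of NK gated cells 58.3% and 49.0%. These shares were not thinned, and Txnip-KO cells were shallower. The sample medians averaged 10985 UMIs in WT and 8506 in Txnip-KO stem gated cells, and 4462 and 3433.5 in NK gated cells. The stem fit without division UMIs had as few as 29 cells in a sample. Granulocyte-monocyte progenitor, erythroid and megakaryocyte gates held too few cells without a division UMI for this fit. With thinned cells the fall passed in stem (-0.56) and lymphoid progenitor gated cells (-0.45). It did not pass in granulocyte-monocyte progenitor (-0.16), plasmacytoid dendritic (-0.19), NK (-0.37), erythroid (-0.49), megakaryocyte (-0.51) and B lineage gated cells (-0.92), with adjusted p from 0.0588 to 0.746 by the same edgeR test. The B lineage call also ended with DESeq2 (-0.73), a stricter cell filter (-0.76) and doublets kept (-0.75), and the plasmacytoid one with DESeq2 (-0.42) and a stricter gate (-0.22).

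Basophil or mast gated cells went the other way. Phgdh stood at 35.0, 35.1 and 34.5 CPM in WT against 39.6, 55.3 and 47.6 CPM in Txnip-KO, with every Txnip-KO sample above every WT sample but no call (0.39, SE 0.18, edgeR quasi-likelihood adjusted p = 0.162). Over all kept cells 29.4% of genes had no overlap upwards. The difference from NK gated cells passed its own test, at 1.02 (SE 0.22, edgeR interaction adjusted p = 0.000814, with 9.64% of genes called), and so did that from stem gated cells, at 1.001 (9.95% called).

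Psat1, the aminotransferase after Phgdh, had WT levels that correlated across the 12 types with those of Shmt2 (Pearson r 0.96) and Phgdh (0.78), as a description over types that share libraries and depth. Monocyte or dendritic gated cells were an exception, at 29.9 CPM for Psat1, the fifth of its levels, and 13.3 CPM for Shmt2, its lowest above 0. Over all kept cells Psat1 gave 35.3, 36.2 and 30.4 against 29.1, 34.5 and 31.7 CPM, an overlap with a log2 fold change of -0.10 (SE 0.09, edgeR quasi-likelihood adjusted p = 0.422). Its WT mean was highest in megakaryocyte (53.6 CPM) and granulocyte-monocyte progenitor gated cells (51.6 CPM). In NK gated cells it fell from 18.0, 12.5 and 13.9 to 7.18, 11.5 and 6.60 CPM (-0.85, SE 0.22), a call lost without WT 1 (-0.68), with thinned cells (-0.66) and among cells without a division UMI (-0.70). It fell in lymphoid progenitor gated cells from 29.1, 31.1 and 28.0 to 21.1, 24.9 and 25.5 CPM (-0.29, SE 0.10), a call lost without WT 2 (-0.26) or Txnip-KO 1 (-0.21), with DESeq2 (-0.29), doublets kept (-0.28), a stricter gate (-0.17), a gate without differing markers (-0.17) and thinned cells (-0.66).

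In basophil or mast gated cells Psat1 rose from 15.5, 23.7 and 12.2 to 23.1, 47.4 and 50.5 CPM (1.06, SE 0.31, edgeR quasi-likelihood adjusted p = 0.0313), with Txnip-KO 1 just below WT 2. The call ended without WT 1 (0.99), WT 3 (0.86), Txnip-KO 2 (0.89) or Txnip-KO 3 (0.81), with a stricter gate (1.18) and with a gate without differing markers (0.96). The difference from NK gated cells was 1.82 (SE 0.31, edgeR interaction adjusted p = 1.88e-05). Psat1 also differed from NK in erythroid (0.90), granulocyte-monocyte progenitor (0.85) and stem gated cells (0.82), in contrasts where 5.81%, 4.07% and 2.23% of genes were called. Both Phgdh and Psat1 therefore moved differently in the basophil or mast gate from the NK gate. This gate held 10.2% of kept WT and 4.33% of kept Txnip-KO cells, and the part of that in the result was not tested.

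Shmt2, the mitochondrial enzyme that splits serine into glycine and a one-carbon unit, gave 41.3, 42.5 and 40.0 CPM in WT against 34.7, 44.9 and 37.5 CPM in Txnip-KO (-0.08, SE 0.10, edgeR quasi-likelihood adjusted p = 0.535). It was called in 0 of 11 types, with log2 fold changes from -1.07 in plasmacytoid dendritic to 0.38 in basophil or mast gated cells, and the interaction over all types passed (edgeR adjusted p = 0.0323). That interaction no longer passed without WT 2 (0.120), WT 3 (0.147), Txnip-KO 1 (0.311) or Txnip-KO 3 (0.336; edgeR adjusted p in each). Shmt2 passed over all kept cells when Txnip-KO 2, its highest sample, was left out (-0.22). At its end Shmt2 overlaps Ndufa4l2 on the opposite strand, a gene with 7 UMIs in all kept cells.

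Mthfd2, the mitochondrial folate enzyme of the next step, was lower. Over all kept cells it stood at 16.6, 18.0 and 15.3 CPM in WT against 8.73, 9.20 and 12.3 CPM in Txnip-KO, without overlap (-0.72, SE 0.14, edgeR quasi-likelihood adjusted p = 0.00528). Among cells without a division UMI the log2 fold change was -0.91 and passed. Its WT mean was highest in monocyte or dendritic gated cells, at 35.6 CPM, and lowest in NK gated cells, at 6.36 CPM.

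Mthfd2 had a negative log2 fold change in the 9 types tested and passed in 4 of them. In the monocyte or dendritic gate 8.56% of genes were lower. Monocyte or dendritic gated cells fell from 40.2, 38.1 and 28.6 to 12.2, 10.8 and 17.3 CPM (-1.37, SE 0.22), the same gate in which Ddit4 rose most. Lymphoid progenitor gated cells fell from 16.2, 16.5 and 15.0 to 8.88, 7.50 and 14.1 CPM (-0.64, SE 0.18) and erythroid gated cells from 12.8, 16.6 and 12.9 to 9.06, 8.31 and 10.7 CPM (-0.59, SE 0.17). Granulocyte-monocyte progenitor gated cells, at 22.9, 25.7 and 25.1 against 16.9, 13.8 and 23.9 CPM, overlapped (-0.45, SE 0.16). The lymphoid progenitor call ended without Txnip-KO 2 (-0.44), the erythroid one without WT 2 (-0.45) or Txnip-KO 2 (-0.50), and the granulocyte-monocyte one without WT 2 (-0.42), WT 3 (-0.45), Txnip-KO 1 (-0.42) or Txnip-KO 2 (-0.28). A stricter gate ended the call in granulocyte-monocyte progenitor (-0.14) and erythroid gated cells (-0.45). DESeq2 (-0.45) and a stricter cell filter (-0.42) ended the former too, and among monocyte or dendritic gated cells without a division UMI the value was -1.45 without a call. The interaction over all types did not pass (edgeR adjusted p = 0.0560).

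The other genes of the same chemistry came from lists named by pathway. Of 20 tested amino acid and one-carbon enzymes outside the 10 genes, 10 fell and 2 rose over all kept cells (median -0.24), among them Tyms (thymidylate synthase, -1.14), Got1 (-0.75), Shmt1 (the cytosolic counterpart of Shmt2, -0.61) and Cth (cystathionine gamma-lyase, -2.72, at 0.287 CPM in WT). Tyms is also 1 of the 18 division markers. Cytosolic tRNA synthetases, many of which ATF4 raises, were lower in 11 and higher in none of 20 (median -0.22), with Rars (-0.58), Farsb (-0.47), Tars (-0.34) and Wars (-0.32) as those with the smallest p. Amino acid transporters were higher in 2 and lower in none of 14 (median 0.12), namely Slc38a9 (a lysosomal arginine sensor, 0.65) and Slc36a1 (0.39), while Slc38a1 (0.16) and Slc38a2 (0.26) did not pass.

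**Figure D5:**
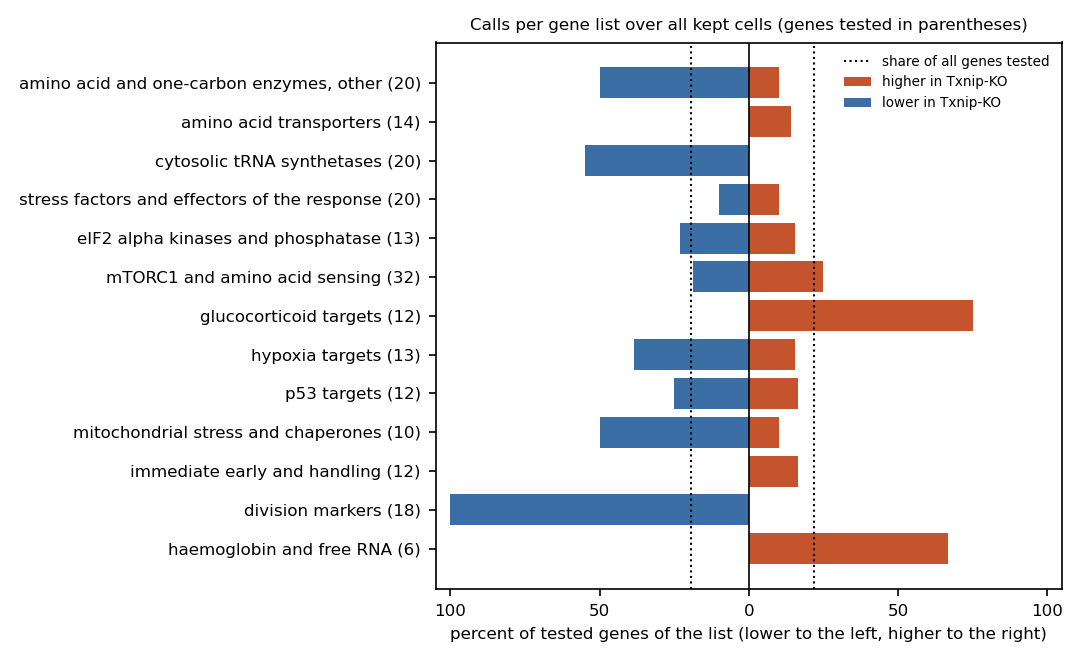
Percent of the tested genes of each list that were called lower (left) or higher (right) in Txnip-KO over all kept cells, with the number tested in parentheses and the shares over all genes (19.3% lower, 21.8% higher) as dotted lines. Glucocorticoid targets reach furthest right and division markers furthest left, while most lists of the ATF4 response lie near or below the dotted lines on the right.

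Stress factors and effectors of the response were higher in 2 and lower in 2 of 20 (median -0.06), below the shares of all genes on both sides. Vldlr (0.83) and Nupr1 (0.44) rose, and the chaperone Hspa5 (-0.77) and the partner factor Cebpb (-0.73) fell. Among eIF2 kinases, phosphatase parts and eIF2 subunits, 2 of 13 were higher and 3 lower, beside 21.8% and 19.3% of all genes. Ppp1r15a (GADD34), the inducible subunit that ends eIF2 phosphorylation, rose by 0.56 and Impact, a brake on the kinase GCN2, by 0.42, while Eif2s1 (-0.62) and Eif2b5 (-0.43), parts of the initiation machinery, fell. Mitochondrial stress genes and chaperones were lower in 5 and higher in 1 of 10, with Hspe1 (-0.70), Hspd1 (-0.56), Trap1 (-0.30) and Yme1l1 (-0.21) lower. Ddit3, Fgf21, Gdf15 and Nupr1 stand in this list and in that of stress factors, and the gene counted as higher is Nupr1 in both.

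RNA of erythrocytes and neutrophils stood apart in some Txnip-KO libraries. The summed level of globins, S100a8 and S100a9 was 354 to 429 CPM in WT, 5440 in Txnip-KO 1, 380 in Txnip-KO 2 and 1578 in Txnip-KO 3. The part of this RNA in the results above was not tested. S100a8 and S100a9 are also markers of the neutrophil lineage gate, which held 0.484% of kept WT and 2.09% of kept Txnip-KO cells.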

How the data were processed

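Single-cell RNA sequencing of sorted bone marrow gave UMI counts per gene and cell barcode, deposited without normalization. Per the submitters' processing notes, Cell Ranger 6.1.1 was among the tools. The authors' genome build is not stated. Gene positions are from GENCODE M21 and promoters from RefSeq, both GRCm38. Kept barcodes had at least 500 genes and 1000 UMIs and at most 10% mitochondrial UMIs. The highest Scrublet doublet scores (scanpy 1.11.5) were removed in each sample, at 0.8% per 1000 barcodes, which left 41513 of 48277 barcodes. At its own threshold Scrublet marked 1394.

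A cell was gated by how many markers of a type it held. Where several gates passed, the type with the largest share of its list was taken if it led by at least 0.2. The markers were listed first, and the numbers required were set after marker counts were seen. The 10 genes and all lists were chosen with earlier results of these data known.

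Counts were summed per sample and type and tested with edgeR 4.0.16 (filterByExpr, TMM, quasi-likelihood test, Benjamini-Hochberg threshold 0.05). On simulated data for all kept cells, 84% of 200 genes changed 2-fold were recovered, against 58.5% in the B lineage gate and 14% for an interaction of 3 types. Intervals for 0 counts use 3 counts. For shares of cells, cells were thinned to 1000 UMIs. Alternatives were DESeq2 1.42.0, other filters, gates and cell sets, and each sample left out. The genes named were all 10, up to 4 per list with the smallest p, and the 5 most like Ddit4. The number of deposited per-sample columns left unused was 0.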

Additional observations from a re-analysis of the deposited data

Results flagged for a closer look

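The 10 values below are differences of the Txnip-KO effect between a gated type and NK gated cells that passed the edgeR interaction test (adjusted over 12597 genes, each sample as a block). For Ddit4 the effect was larger by 1.59 in monocyte or dendritic, 1.04 in plasmacytoid dendritic, 0.87 in erythroid and 0.81 in lymphoid progenitor gated cells on the log2 scale. For Psat1, which fell in NK gated cells, the difference was 1.82 in basophil or mast, 0.90 in erythroid, 0.85 in granulocyte-monocyte progenitor and 0.82 in stem gated cells. For Phgdh it was 1.02 in basophil or mast gated cells. For Asns it was 4.71 in basophil or mast gated cells (SE 1.58, edgeR adjusted p = 0.0440), where WT cells held 1 UMI of the gene in all, so that this size depends on the prior count of the fit.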

How the results depend on the processing

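Of 638 alternative values for the log2 fold changes of 43 gene and cell set pairs, 531 kept their direction and their side of the threshold, 98 no longer passed, 1 newly passed and 8 changed sign. The sign changed for Atf4 (-0.068), Psat1 (0.10), Phgdh (0.0080), Shmt2 (0.36) and Sesn2 (-0.19) over all kept cells without a division UMI. It also changed for Sesn2 with thinned cells (-0.074) and for Atf5 without WT 2 (-0.015, the lowest of -0.015 to 0.13 with 1 sample left out) and with doublets kept (-0.0067). Of these, only Phgdh had been called, and the cause was not tested.

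The genes called over all kept cells numbered 6024, against 2835 among cells without a division UMI, 2692 with thinned cells, which hold fewer counts, and 3560 to 6142 with 1 sample left out (3560 without WT 2, 3714 without WT 3). Of the 10 genes, 3 were higher, against 1 with thinned cells and 2 to 3 with 1 sample left out. Lower were 2, against 1 without division UMIs, 1 thinned and 2 to 3 with 1 sample left out. The 33 calls by type became 11 with thinned cells and 24 to 28 with 1 sample left out. The 19 higher became 7 and 12 to 16 (12 without WT 1), and the 14 lower 4 and 9 to 14 (9 without WT 2). Ddit4 was higher in 11 types, against 7 thinned and 8 to 11. The interaction passed for 6 genes, against 3 to 6. The unthinned differences in the share of cells with a UMI were 15.2 percentage points for Ddit4 and 1.36 for Trib3, against 3.50 and 0.144 thinned.

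Same-numbered WT and Txnip-KO samples deviated together by r of 0.104, 0.0994 and 0.0640, against at most 0.0044 between other numbers. Each sample thus correlated best with its own number, which is a hint from the data that same-numbered samples share something. The labels name nothing shared and not every r was over 0.1, so no pairing was assumed. With the replicate number as a block, 6464 genes were called over all kept cells. The 10 genes' calls in all 43 pairs stayed as they were under that block. Cell sets with under 20 cells in a sample were not fitted. Counts over 12 types were therefore not run for cells without a division UMI, for the stricter cell filter, and for gates without differing markers.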
